A study of Mus musculus with 8 samples.

Results

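miR-125a, miR-125b, miR-99a, miR-99b and miR-100 were followed through cell-cycle arrest and release in NIH-3T3, an immortalised mouse embryo fibroblast line. They were chosen by name, as the 5 miRNAs made from 6 mouse hairpins (miR-125b has a pair of hairpins), and both arms of every hairpin were counted. That gave 11 mature arms of the 433 mature miRNAs counted in the series: 5 guides (5p arms) and 6 passengers (3p arms), each rarer than its own guide. The series holds 8 small-RNA libraries from 2 experiments, with 1 library a condition and no replicates. In the serum experiment, cells kept in 10% serum were deprived of serum for 48 h and then given medium with 20% serum. They were harvested at 0 h (labelled G0), 12 h (G1), 16 h (S), 20 h (G2/M) and 24 h (G1) after serum was added back. In the contact experiment, sparse cultures (12% confluency at plating) were left to grow dense over several days, with libraries of day 0 (labelled asynchronous), day 3 and day 5 (both labelled G0). All 8 libraries come from the same line, and no agent other than serum and cell density differs between them by label. Bulk RNA cannot tell fewer cells that make a miRNA from less of it per cell.

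miRNAs are short RNAs cut from hairpin precursors. The strand loaded into Argonaute (the guide) finds target messenger RNAs mainly through its seed, bases 2 to 8, and the other strand (the passenger) is mostly lost. miR-125 is the vertebrate relative of worm lin-4, a timing miRNA, and represses Lin28a, an RNA-binding protein of stem cells that blocks let-7 maturation. miR-99 and miR-100 are known in human cells to repress MTOR, a kinase of the growth pathway. Members of both families lie together with a let-7 gene in ancient clusters that exist in several copies in mammals.

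The mature sequences are from RefSeq (mouse build GRCm38.p6, matched by miRNA name, all 11 arms found), written 5′ to 3′ with the seed in capitals. The guides come first, since nearly all reads were theirs, grouped by seed, and miR-351-5p is shown because it has the seed of miR-125 without being a member.

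miR-125a-5p: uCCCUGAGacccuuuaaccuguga
miR-125b-5p: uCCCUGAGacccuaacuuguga
miR-351-5p: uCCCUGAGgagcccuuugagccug
miR-99a-5p: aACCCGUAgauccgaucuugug
miR-99b-5p: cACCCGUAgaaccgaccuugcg
miR-100-5p: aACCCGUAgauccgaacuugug

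The passengers name the hairpin they came from, which matters for miR-125b, whose guide is identical from both of its hairpins.

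miR-125b-1-3p: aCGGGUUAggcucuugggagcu
miR-125b-2-3p: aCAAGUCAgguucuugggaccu
miR-125a-3p: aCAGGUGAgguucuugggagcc
miR-99a-3p: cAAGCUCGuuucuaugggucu
miR-99b-3p: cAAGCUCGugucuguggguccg
miR-100-3p: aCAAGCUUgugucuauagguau

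miR-100-5p and miR-99a-5p differ at 1 base, A16U, counted from the 5′ end with the base of miR-100-5p first. At that position the 8 libraries together held 1994 reads with A and 1607 with T, against 1 with C and 0 with G, so few reads can have passed between these members by sequencing error. The hairpins lie in 3 clusters of build GRCm38, all on the + strand. Mir99b (chr17:17830188-17830257) and Mir125a (chr17:17830812-17830879) flank Mirlet7e within 692 bases. Mir99b and Mirlet7e lie in an intron of Spaca6, a protein-coding gene on the same strand, and Mir125a overlaps one of its annotated exons. Mir99a (chr16:77598936-77599000), Mirlet7c-1 and Mir125b-2 (chr16:77646273-77646343) span 47408 bases in introns of Mir99ahg, a long noncoding host gene. Mir100 (chr9:41531425-41531504), Mirlet7a-2 and Mir125b-1 (chr9:41581926-41582002) span 50578 bases in introns of the noncoding genes 3110039I08Rik and Gm49317.

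The libraries were not alike in ways that bear on every value below. Total reads were 6121247 to 8512472 in the serum libraries and 707202 to 801593 in the contact libraries. miRNA reads made up 3.89%, 2.39%, 12.6%, 2.59% and 1.85% of all reads at 0, 12, 16, 20 and 24 h, and 46.1%, 57.4% and 57.7% on contact days 0, 3 and 5. The 12 h library held fewer kinds of miRNA, 233 expected at a common depth of 137585 miRNA reads against 304 to 369 in the other 7. At 0 h, 28.1% of reads had an insert under 16 nt, against 0.566% to 1.83% elsewhere. The 0 h library also held 685 reads of 4 epithelial miRNAs, miR-200a-3p, miR-200b-3p, miR-200c-3p and miR-141-3p (0.288% of miRNA reads), with 0 to 9 such reads in each other library. It held 62 reads of miR-142a-3p, a blood-cell miRNA with 0 in the other 7, and 0 reads of miR-451a, a red-cell miRNA with 0 to 4 elsewhere. The 12 h library, in which miR-125b-5p had its highest share, held 200 reads of the pluripotent-cell miRNAs miR-291a-3p (115) and miR-294-3p (85), 0.0985% of miRNA reads. The other 7 held 0 to 52 reads of that list. miR-295-3p, also on it, went the other way, with 0 reads at 12 h and 38 at 0 h. The neural miRNAs miR-128-3p and miR-9-5p had 0 reads at 12 h and 86 to 870 together elsewhere, and the muscle miRNA miR-206-3p had 19 to 214 in every library. All 6 fibroblast markers searched (miR-143-3p, miR-145a-5p, miR-199a-3p, miR-199a-5p, miR-21a-5p and miR-214-3p) had at least 128 reads in every library. Together they took 6.045%, 10.3% and 32.5% of miRNA reads on contact days 0, 3 and 5 and 16.99% to 27.3% in the serum libraries. What these differences contribute to the values of the members was not tested.

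miR-125b-5p was the dominant member in all 8 libraries and the most abundant of all miRNAs in 3 of them. It made up 6.14%, 16.5%, 6.53%, 14.4% and 14.2% of miRNA reads at 0, 12, 16, 20 and 24 h. On contact days 0, 3 and 5 it made up 5.50%, 3.99% and 1.82%. It ranked first among miRNAs at 12, 20 and 24 h, and its share was low at 0 h and 16 h and lowest on contact day 5, over a 9.11-fold range. The same shape appeared in its seed partner miR-125a-5p, with 1.95%, 3.47%, 1.48%, 3.10% and 3.33% over the serum times and 0.971%, 0.626% and 0.438% over the contact days. 0 h and 16 h were also the serum libraries in which miRNAs were the largest part of all reads, and the part this plays was not tested. The exact binomial 95% intervals of these shares were narrow (14.3% to 14.6% for miR-125b-5p at 20 h), but they cover counting error only.

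The miR-99 seed group was scarcer. miR-99b-5p made up 0.397%, 0.433%, 0.337%, 0.496% and 0.443% of miRNA reads from 0 to 24 h, a 1.47-fold range, and 0.604%, 0.478% and 0.180% on contact days 0, 3 and 5. miR-100-5p stood at 0.117%, 0.0601%, 0.0946%, 0.136% and 0.0654% over the serum times and at 0.0448%, 0.0269% and 0.0318% over the contact days. miR-99a-5p stood at 0.121%, 0.0793%, 0.0816%, 0.0789% and 0.0531% over the serum times and at 0.0166%, 0.0199% and 0.0156% over the contact days. The order miR-125b-5p, miR-125a-5p, miR-99b-5p held in every library, with miR-100-5p and miR-99a-5p below them. The last pair changed places, and their intervals overlapped at 0, 12 and 24 h and on day 3. By share, miR-99a-5p and miR-100-5p were lower on every contact day than at any serum time, while miR-99b-5p was not. In scaled counts this held for miR-99a-5p (at most 293 CPM in the contact libraries, at least 404 CPM in the serum libraries) but not for miR-100-5p.

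**Figure D1:**
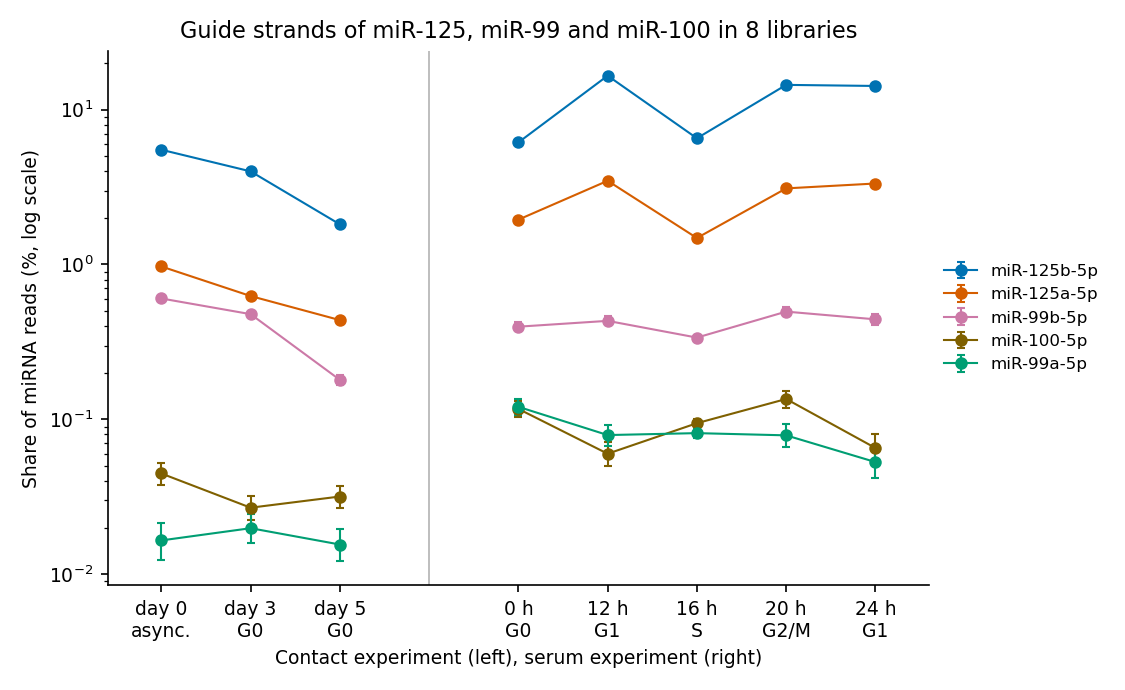
Share of miRNA reads (percent, log scale) of the 5 guides in the 8 libraries, with 95% exact binomial intervals that cover counting error only; lines join libraries of 1 experiment. miR-125b-5p and miR-125a-5p are low at 0 h and 16 h and high at 12, 20 and 24 h, and by share miR-99a-5p and miR-100-5p lie lower in the contact libraries.

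Together the 5 guides took 8.72%, 20.6%, 8.52%, 18.2% and 18.1% of miRNA reads at 0, 12, 16, 20 and 24 h, and 7.14%, 5.14% and 2.48% on contact days 0, 3 and 5. miR-125b-5p alone was 70.4% of them at 0 h and 80.4% at 12 h, the lowest and highest values. Of all reads with the seed CCCUGAG, miR-351-5p, made from the X chromosome, held 0.453%, 0.575% and 2.68% on contact days 0, 3 and 5. It held 1.79% to 2.29% in the serum libraries. Of reads with the seed ACCCGUA, miR-99b-5p held 90.8%, 91.1% and 79.2% on contact days 0, 3 and 5 and 62.6% to 78.9% in the serum libraries.

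The question of the study design, whether arrested and cycling cells differ, was asked of each arm by setting the 3 G0 libraries (0 h, day 3, day 5) against the other 5. No member arm was called by edgeR's quasi-likelihood test at an adjusted p under 0.05, where 0.865% of the 347 miRNAs tested were called. Of the 11 arms, 10 passed the filter of 10 counts per 1000000 miRNA reads (CPM) in 3 libraries, and miR-99a-3p did not. In that test 8 of the 10 had a negative log2 fold change, with a median of −0.71, beside a median of −0.31 and 204 negative of 347 over all miRNAs tested. The 2 positive arms were miR-99a-5p (0.24) and miR-125b-2-3p (3.22, SE 1.90, adjusted p 0.561 by edgeR). miR-125b-2-3p, the other passenger of miR-125b, had only 0 to 18 reads a library. At an unadjusted p under 0.05, 3 member arms were lower in G0 and 0 were higher, where 6.05% of all miRNAs tested were lower. Here and below, CPM are scaled by TMM, a method that aligns the bulk of the miRNAs between libraries.

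miR-125b-5p stood at 42781, 49358 and 32563 CPM in the G0 libraries of 0 h, day 3 and day 5. It stood at 119270, 55913, 111888, 108229 and 97469 CPM at 12, 16, 20 and 24 h and on day 0. The groups did not overlap on this scale, 16 h being the nearest to G0, but they did by share of miRNA reads (up to 6.14% in G0, down to 5.50% in the others). The log2 fold change was −1.23 (SE 0.39), with an adjusted p of 0.180 by edgeR's quasi-likelihood test. Without the 16 h library it was −1.37 and the adjusted p 0.0463, which passes the threshold, while without the 0 h library the adjusted p was 0.850.

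miR-125b-1-3p, the passenger of the chromosome 9 hairpin, had 363, 302 and 497 CPM in the same G0 libraries. It had 781, 781, 1241, 1307 and 755 CPM at 12, 16, 20 and 24 h and on day 0. The groups again did not overlap in CPM and did by share, the log2 fold change was −1.23 (SE 0.58) and the adjusted p from edgeR 0.423. Between single libraries this passenger did not always move with its guide. At 16 h it was 0.999 of its 12 h level, where miR-125b-5p was 0.469. On day 5 it was 1.64-fold its day 3 level, where miR-125b-5p was 0.660. These 2 of 10 arms were the ones with every G0 library below every other library in CPM, where 4.32% of all miRNAs tested were so placed, and 0 arms had every G0 library above, where 4.03% did. By share of miRNA reads there were 0 such arms below, where 2.31% of all were, and 0 above, where 3.46% were.

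miR-125a-5p had 13575, 7739 and 7844 CPM at 0 h, on day 3 and on day 5. The other libraries had 25015, 12695, 24023, 25401 and 17199 CPM, and 16 h fell below 0 h, so the groups overlapped. Its log2 fold change was −0.89 (SE 0.40, adjusted p 0.423 by edgeR). The miR-99 group showed smaller values, −0.69 (SE 0.45) for miR-99b-5p, −0.24 (SE 0.54) for miR-100-5p and 0.24 (SE 0.54) for miR-99a-5p, with adjusted p from edgeR of 0.598 to 0.849. The sign for miR-100-5p turned without day 0 (0.23) and that for miR-99a-5p turned without the experiment term (−0.18). For comparison, their relative miR-10a-5p, whose guide differs in its seed, had a log2 fold change of 3.04 (adjusted p 0.0328 by edgeR) and rested on 924 reads at 0 h, against 17 to 139 in the other serum libraries.

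Within the serum experiment, 0 h was compared with each released library as a ratio of CPM, with an exact conditional binomial 95% interval. The rule asked for a difference of 2-fold or more in the same direction against all 4, with no interval reaching 1. Of the member arms, 7 had at least 100 reads in 1 or more of these libraries, miR-125a-3p only at 16 h (166 reads). Of these 7, 1 was lower at 0 h, where 6.22% of all miRNAs compared were, and 0 were higher, where 4% were. The 1 arm was miR-125b-1-3p, with ratios of 0.465, 0.466, 0.293 and 0.278 against 12, 16, 20 and 24 h. Under DESeq2 size factors, by share of miRNA reads, with 18 bases matched or with 10 adapter bases, it no longer met the rule and the count was 0.

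miR-125b-5p at 0 h was 0.359, 0.382 and 0.395 of its level at 12, 20 and 24 h, but 0.765 of its level at 16 h (95% interval 0.751 to 0.779). The corresponding ratios of miR-125a-5p were 0.543, 0.565 and 0.534, with 1.07 against 16 h. The 16 h library, labelled S, was thus nearer to 0 h than to the other released libraries. Both miR-125 guides were lower at 16 h, at 0.469 (miR-125b-5p) and 0.507 (miR-125a-5p) of their 12 h level. At 20 h they were 2.00-fold and 1.89-fold higher than at 16 h. Between 24 h and 12 h, both labelled G1, the ratios were 0.907 and 1.02. miR-351-5p, with the same seed, had 1319, 2932, 1252, 3106 and 2604 CPM from 0 to 24 h, with the same low values at 0 h and 16 h.

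The miR-99 group did not follow that course. miR-99b-5p at 0 h was 0.887, 0.957, 0.719 and 0.820 of its levels at 12, 16, 20 and 24 h. miR-99a-5p had 841, 571, 699, 612 and 404 CPM from 0 to 24 h and was highest at 0 h, by 1.203-fold to 2.08-fold over the released libraries. miR-100-5p had 815, 433, 810, 1051 and 499 CPM from 0 to 24 h and was highest at 20 h. At 0 h it was 1.88-fold the 12 h level and 0.775 of the 20 h level.

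In the contact experiment, days 3 and 5 were compared with day 0 in the same way. Of 5 member arms with enough reads, 1 was lower on both days, where 12.6% of all miRNAs compared were, and 0 were higher, where 17.4% were. The 1 arm was miR-125a-5p, with 17199 CPM on day 0, 7739 on day 3 and 7844 on day 5. Its ratios to day 0 were 0.450 (95% interval 0.427 to 0.474) on day 3 and 0.456 (0.431 to 0.482) on day 5. By share of miRNA reads its day 3 ratio was 0.644 and it did not meet the rule, since the scaling moves every day 3 ratio by 0.52 on the log2 scale.

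miR-125b-5p lay just outside the rule on day 3, at 0.506 of day 0, and was at 0.334 on day 5. miR-99b-5p was at 0.553 and 0.302 of day 0 on days 3 and 5, and by share it was at 0.792 and 0.298. miR-100-5p was at 0.420 and 0.719 of day 0. miR-125b-1-3p was at 0.4001 and 0.658. miR-99a-5p, with 54, 87 and 72 reads on days 0, 3 and 5, had intervals that included 1 on both days. The ratios of the 5 guides to day 0 ran from 0.302 to 0.952 in CPM and from 0.298 to 1.199 by share of miRNA reads. miR-351-5p was at 0.633 on day 3 and at 2.13-fold on day 5, above day 0 while its seed partners were below it.

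**Figure D2:**
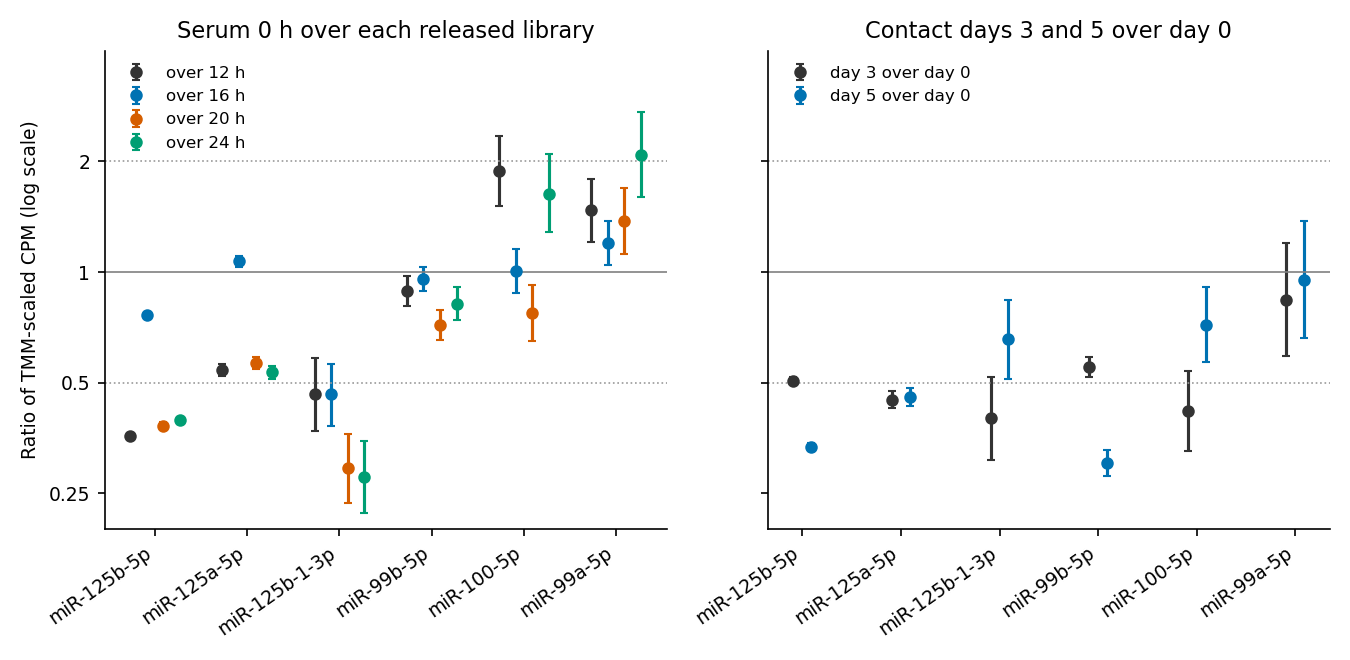
Ratios of TMM-scaled CPM (log scale) of the 5 guides and miR-125b-1-3p, at serum 0 h over each released library (left) and on contact days 3 and 5 over day 0 (right), with 95% exact conditional binomial intervals; dotted lines mark 2-fold. At left miR-125b-1-3p is the 1 arm past 2-fold against all 4 libraries, and at right miR-125a-5p is the 1 arm past it on both days.

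Guides made from 1 cluster were set against each other as ratios of their reads within a library, which needs no scaling between libraries but keeps any difference in how well each sequence is captured. On chromosome 17, miR-99b-5p was 0.622, 0.764 and 0.411 of miR-125a-5p on contact days 0, 3 and 5. From 0 to 24 h of the serum experiment it was 0.204, 0.125, 0.228, 0.160 and 0.133. The ranges of the experiments did not overlap. let-7e-5p, from the hairpin between them, was 7.77, 10.1 and 4.78 times miR-125a-5p on contact days 0, 3 and 5 and 0.193 to 0.650 of it in the serum libraries. Of the 3 guides that share those 692 bases, let-7e-5p was thus ahead of miR-125a-5p in every contact library and behind it in every serum library. The experiments also differ in depth and in the share of reads that were miRNA, and the contributions of cells and library making to this gap cannot be told apart.

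On chromosomes 16 and 9 the ratio to miR-125b-5p was far smaller, and since that guide comes from both loci each ratio is a lower limit for its own cluster. miR-99a-5p was 0.0197, 0.00479, 0.0125, 0.00547 and 0.00374 of miR-125b-5p from 0 to 24 h and 0.00301, 0.00498 and 0.00858 on contact days 0, 3 and 5. miR-100-5p was 0.0190, 0.00363, 0.0145, 0.00939 and 0.00461 from 0 to 24 h and 0.00814, 0.00675 and 0.0175 on contact days 0, 3 and 5. Both ratios were highest at 0 h, where miR-125b-5p was low, and low at 12 h and 24 h, although for miR-100-5p the interval of day 5 overlapped that of 0 h. The ratio of miR-99a-5p to miR-100-5p was 1.03, 1.32, 0.863, 0.582 and 0.811 from 0 to 24 h and 0.370, 0.737 and 0.490 on contact days 0, 3 and 5.

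**Figure D3:**
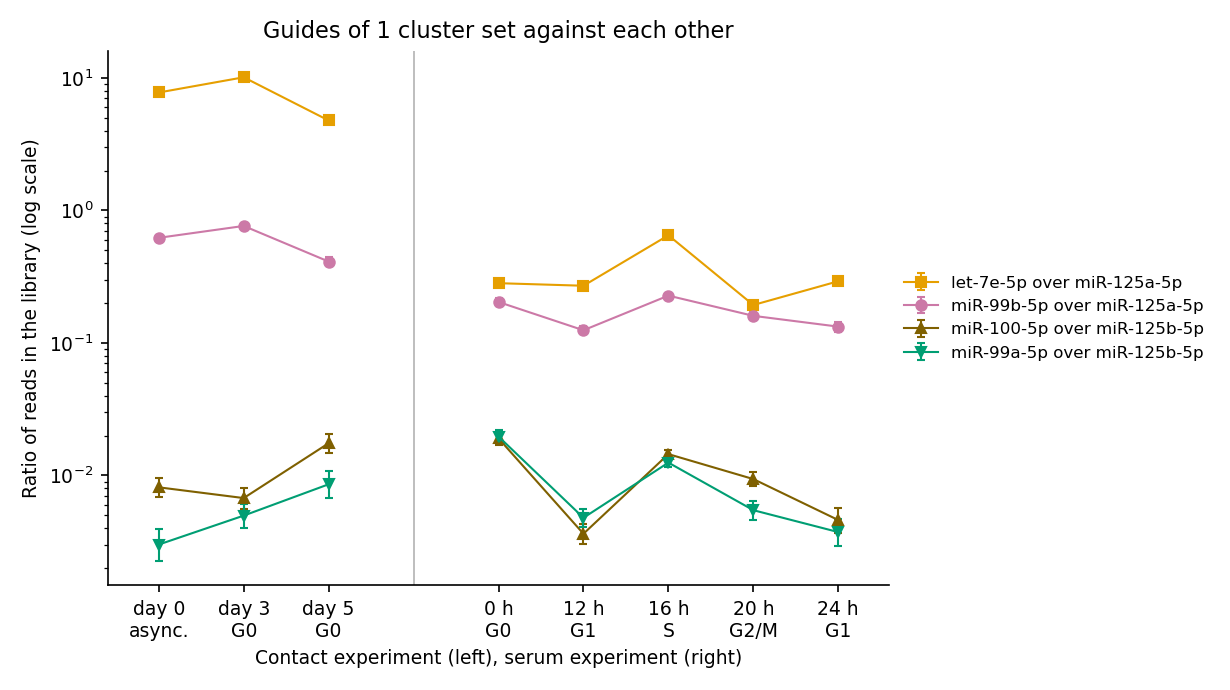
Ratio of reads (log scale) between guides of the same cluster in each library, with 95% exact conditional binomial intervals that cover counting error only. let-7e-5p and miR-99b-5p lie higher against miR-125a-5p in all 3 contact libraries than in any of the 5 serum libraries, while the small ratios of miR-100-5p and miR-99a-5p to miR-125b-5p are highest at 0 h.

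The passengers of miR-125b name the hairpin. miR-125b-1-3p, of chromosome 9, had 124, 220, 813, 294 and 236 reads from 0 to 24 h and 139, 107 and 128 on contact days 0, 3 and 5. miR-125b-2-3p, of chromosome 16, had 14, 0, 18, 1 and 0 reads from 0 to 24 h and 0, 2 and 7 on contact days 0, 3 and 5. The ratio of the second to the first was 0.113 at 0 h (95% interval 0.0600 to 0.197), 0.0221 at 16 h and 0.0547 on day 5. Where the whole insert had to match the hairpin, the 0 h reads of miR-125b-1-3p dropped to 39 and those of miR-125b-2-3p to 13, and the 0 h ratio was 0.333, above that interval. At 12 h, with 0 reads, the interval reached 0.0169. Passengers of the chromosome 9 hairpin thus outnumbered those of chromosome 16 in every library, and how passenger survival differs between the hairpins was not tested. A count of 0 allows up to 3 reads, or 10.7 CPM at 12 h, 16.6 CPM at 24 h and 16.3 CPM on day 0.

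At 0 h the other products of the chromosome 16 cluster were also present. miR-99a-3p had 20 reads there, all of them starting 1 base after the RefSeq start. At the RefSeq start it had 0 reads at 0 h, 8 at 16 h, 1 on day 3 and 4 on day 5, and none was seen from either start in the other 4 libraries. let-7c-1-3p, the passenger of the hairpin between, had 9 reads at 0 h, 1 at 16 h and 0 in the other 6. The epithelial reads described above lay in the same library, and their part in these counts was not tested. miR-100-3p, the chromosome 9 counterpart, had 0 reads at 0 h and 12 h. It had 57, 21 and 5 reads at 16, 20 and 24 h and 8, 31 and 26 on contact days 0, 3 and 5. The ratio of miR-100-3p to its guide was 0.263 on day 3, 0.177 on day 5 and 0.0548 on day 0, and between 0.0556 and 0.0843 at 16, 20 and 24 h. With any start within 2 bases counted, the 24 h ratio was 0.2 and the day 5 ratio 0.201, so that gap rests on the start chosen, while day 3 stayed highest at 0.355.

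The other passengers were a small fraction of their guides. Both miR-125b passengers together were 0.623% to 1.61% of miR-125b-5p reads. miR-125a-3p was 0.993%, 1.26%, 0.738% and 0.742% of miR-125a-5p at 0, 16, 20 and 24 h, and 2.81%, 2.63% and 1.24% on contact days 0, 3 and 5. miR-99b-3p was 1.196% to 4.76% of miR-99b-5p outside 12 h. Several of these shares depend on the bases that had to match. At 12 h every passenger other than miR-125b-1-3p had 0 reads, while the guide miR-125a-5p had 7047. That library is also the one with the fewest kinds of miRNA.

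The 3′ ends of miR-125a-5p and miR-125b-5p differed between the experiments, more for miR-125a-5p, and here too cells and library making cannot be told apart. The forms that carried the difference, as read in the libraries with the seed in capitals, were the full 24-nt form and the 22-nt form that lacks the last bases.

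24-nt form: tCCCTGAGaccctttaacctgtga
22-nt form: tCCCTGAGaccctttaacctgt

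The 24-nt form made up 66.0%, 71.98% and 41.3% of miR-125a-5p reads on contact days 0, 3 and 5. From 0 to 24 h of the serum experiment it made up 25.9%, 30.1%, 30.7%, 29.2% and 35.3%. The 22-nt form made up 14.4%, 9.52% and 36.8% on contact days 0, 3 and 5 and 44.5%, 44.1%, 41.8%, 44.3% and 35.7% from 0 to 24 h. All 3 contact libraries lay above the 5 serum libraries in the 24-nt form. In that form day 5 stood between the serum libraries and the other contact days, while in the 22-nt form it lay within the serum range. The mean length of miR-125a-5p was 23.6, 23.7 and 23.04 nt on contact days 0, 3 and 5 and 22.8 to 23.04 nt in the serum libraries. Averaged over libraries it was 0.505 nt longer in the contact experiment, ranking 2 among 73 miRNAs with 100 reads in every library, whose median difference was 0.0268 nt and whose range was −0.568 to 0.763 nt.

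miR-125b-5p was more uniform in length in both experiments. Reads of its RefSeq length of 22 nt were 95.4%, 96.7% and 90.7% on contact days 0, 3 and 5, and 82.0%, 84.4%, 83.8%, 84.2% and 85.6% from 0 to 24 h. Its 20-nt and 21-nt reads were 0.515% and 1.08% on day 3, against 4.86% and 9.08% at 0 h. As for miR-125a-5p, contact day 5 was the contact library nearest to the serum ones. Reads ending in an added A that the hairpin does not encode were 1.61%, 0.910% and 2.14% of miR-125b-5p on contact days 0, 3 and 5 and 2.83% to 3.99% in the serum libraries.

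miR-99b-5p went the other way in its added A, with 16.9%, 19.2% and 12.1% of its reads on contact days 0, 3 and 5 and 6.26% to 10.3% in the serum libraries. Thus the contact libraries had less added A on miR-125b-5p and more on miR-99b-5p. miR-99a-5p had an added T on 7.67% of its reads at 0 h, on 8.28% to 20.5% at 12 to 24 h and on 19.5% to 29.6% in the contact libraries. Its 21-nt reads were 79.1% at 0 h, against 35.2% to 47.9% at 12 to 24 h and 14.8% to 27.6% in the contact libraries. The 0 h interval of the main 21-nt form (72.4% to 82.4%, of 287 reads) lay above those of the other 7 libraries. The library labelled 0 h thus differed from the other 7 in the 3′ end of miR-99a-5p. The start of its miR-99a-3p reads could be compared only with 16 h, day 3 and day 5 (8, 1 and 4 reads), and it differed from those. The 0 h level of miR-99a-5p, the highest, was 1.203-fold that of 16 h (95% interval 1.046 to 1.38). In mean length the experiments overlapped for miR-99b-5p (21.77 to 21.89 nt in the contact and 21.59 to 21.82 nt in the serum libraries). They also overlapped for miR-100-5p (21.96 to 22.03 nt in the contact and 21.73 to 22.34 nt in the serum libraries). For miR-99a-5p they did not overlap (22.02 to 22.35 nt in the contact and 21.29 to 21.99 nt in the serum libraries). Its contact values rest on 54 to 87 reads a library. miR-100-5p had an added T on 36.1% of 122 reads at 12 h and on 4.68% to 17.8% elsewhere.

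**Figure D4:**
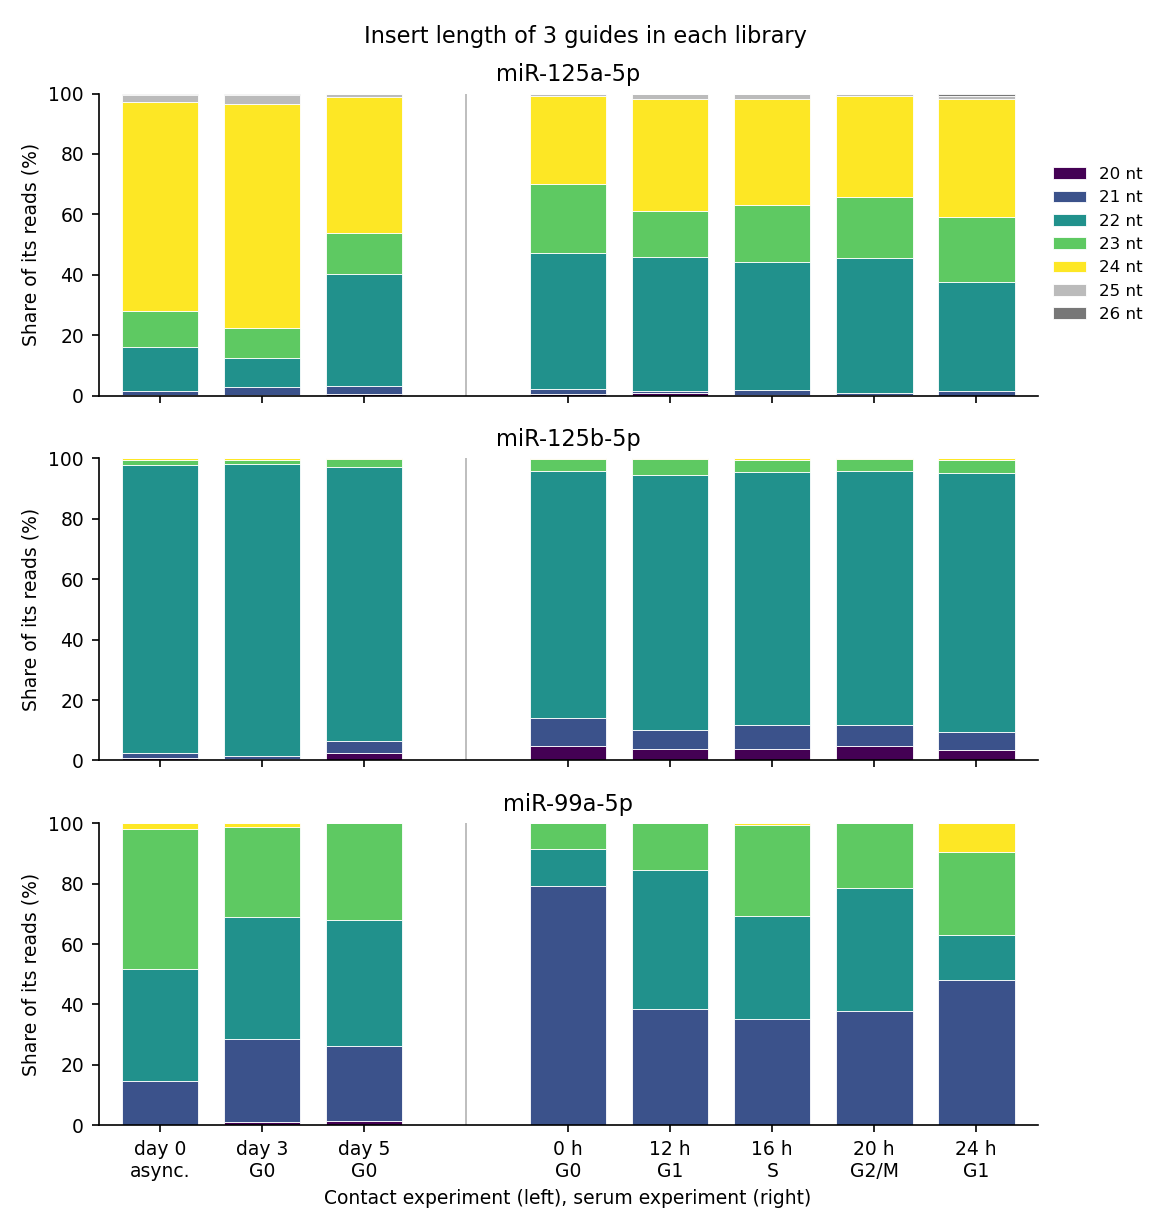
Share of reads (percent) of miR-125a-5p, miR-125b-5p and miR-99a-5p by insert length in each of the 8 libraries. Reads of 24 nt fill 69.1% and 73.8% of miR-125a-5p on contact days 0 and 3 but at most 38.8% in the serum libraries, and 21-nt reads fill 79.1% of miR-99a-5p at 0 h.

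The 5′ end fixes the seed, and nearly all reads of the miR-125 guides began at the RefSeq start. Starts 2 bases further in, which would shift the seed, were 1.60%, 1.88% and 2.04% of miR-125b-5p on contact days 0, 3 and 5. From 0 to 24 h they were 0.167%, 0.271%, 0.255%, 0.129% and 0.166%. For miR-125a-5p they were 1.5%, 2.16% and 2.20% on contact days 0, 3 and 5 and 0.657%, 1.25%, 0.239%, 0.397% and 0.172% from 0 to 24 h. Every contact library was above every serum library in both guides. By the contact mean minus the serum mean, miR-125b-5p ranked 4 and miR-125a-5p ranked 5 of 73 miRNAs, whose median was 0.110% in the contact and 0.0475% in the serum libraries. Starts 2 bases in were 0 or 1 read in every library for miR-99a-5p, miR-99b-5p and miR-100-5p.

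Across the 8 libraries the log2 CPM of miR-125a-5p and miR-125b-5p had a Pearson r of 0.911, and the log2 shares of miRNA reads 0.964, although they come from different chromosomes. For miR-99b-5p and miR-125a-5p, from the same cluster, r was −0.08 in CPM and 0.47 by share, and for miR-99a-5p and miR-100-5p it was 0.551 in CPM and 0.884 by share, so these values turn on the scale. Among 69 other miRNAs searched in CPM, the closest to miR-125b-5p were miR-744-5p (r of 0.945) and miR-342-3p (0.921), and the closest to miR-125a-5p was miR-342-3p (0.914). miR-99b-5p was closest to miR-320-3p (0.932), miR-99a-5p to miR-22-3p (0.878) and miR-100-5p to miR-652-3p (0.830). These correlations over 8 unreplicated libraries are descriptions, and depth and the gap between the experiments enter them all.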

How the data were processed

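Small RNA was sequenced in 8 libraries of NIH-3T3 cells. The deposited files give distinct 36-base reads with their counts, adapter included. Library preparation is given in the labels only by an earlier publication, and the sources used here name no aligner, filter or genome build used by the authors. The 3′ adapter was trimmed in Python 3.11.15 where at least 6 bases of it were seen (1 mismatch per 8), and inserts of 16 to 30 nt were kept. A read was counted for a mature arm of the GENCODE M21 hairpins (GRCm38) when its first 20 bases were identical, and 3′ ends were read from the insert. Names and mature sequences are from RefSeq. Depth per library was 707202 to 8512472 reads, of which 137585 to 892528 were counted for a miRNA. The 3 G0 libraries were tested against the other 5 on counts with edgeR 4.0.16 (R 4.3.3): TMM, robust quasi-likelihood, the experiment as a term, at least 10 CPM in 3 libraries, Benjamini-Hochberg over 347 miRNAs at 0.05, 2-sided, 5 residual degrees of freedom. Its p-values measure the spread between libraries, times and phases included. The SE is the fold change over the square root of F. Single libraries were compared by ratios of scaled CPM, and counts of arms took those with at least 100 reads in 1 or more of the libraries compared. Intervals are 95% exact (Clopper-Pearson for shares, conditional binomial for ratios), and the floor is 3 counts. The reads have no molecular identifiers, so both cover counting error only. The edgeR fit was run on simulated counts with changes larger than those of the guides and no difference between the experiments. It cannot show whether changes of the guides' size would be called. Every arm of the 6 hairpins was named whatever its value. miR-351-5p, the cluster's let-7 members, miR-10a-5p, miR-10b-5p and, for each guide, the miRNAs most like it were added by rule. Members and lists were chosen with earlier results of these data known. Alternatives were DESeq2 1.42.0 (size factors and Wald test), scaling by total miRNA reads, no filter, no experiment term, other matching and adapter rules, other read and fold minimums, and each library left out.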

Additional observations from a re-analysis of the deposited data

Results flagged for a closer look

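Among the 5 libraries not labelled G0, miR-99b-5p on contact day 0 (10691 CPM) was far above the other 4, which are all serum libraries (2891 to 3848 CPM). By share of miRNA reads the gap was smaller, 0.604% on day 0 and 0.337% to 0.496% in those 4: the ratio of day 0 to 24 h was 3.17 in CPM and 1.363 by share, since scaling moves that comparison by −1.22 (share over CPM, log2). In the same group miR-125b-2-3p stood apart at 16 h with 17.3 CPM (18 reads), against 0 to 4.22 CPM. The floor of 3 counts was 10.7 to 16.6 CPM in those other libraries and 2.88 CPM at 16 h, which had the most miRNA reads. Among the 4 released serum libraries, miR-125a-5p stood apart at 16 h with 12695 CPM, against 24023 to 25401, and miR-125a-3p at 12 h with 0 CPM, against 159 to 188. These 4 values came from 20 groups tested for a lone sample, and chance flags about 1 group in 20 (5%). The groups overlap, since the released serum libraries are among those not labelled G0, so the 4 cannot be weighed against that rate. The direction of miR-99a-5p was opposite in the 2 experiments: 841 CPM at 0 h was above every released library (404 to 699), while days 3 and 5 (246 and 279 CPM) were below day 0 (293 CPM). By share of miRNA reads day 3 lay above day 0 (0.0199% and 0.0166%, a ratio of 1.199), so the opposite direction holds in CPM and not by share. That difference was not tested, and the contact intervals included no change.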

How the results depend on the processing

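With 0 member arms called in the G0 comparison, 15 of 16 alternatives also called 0. The DESeq2 Wald test gave a smallest adjusted p among members of 0.0886 and 14 miRNAs in all, against 3 by edgeR, where 39 had an unadjusted p under 0.05. With 1 library left out at a time, 0 to 1 member arms were called, the 1 being miR-125b-5p without 16 h (12 miRNAs in all). The count of all called miRNAs ran from 0 to 12 with 1 library left out, 0 without 0 h or 24 h, and was 8 with no filter and 1 with no experiment term. Signs turned with adjusted p from 0.923 to 0.999 for miR-125a-3p without day 0 (0.057), miR-99b-3p without 24 h (0.020) or day 0 (0.096), miR-100-5p without day 0 (0.23), miR-99a-5p without the experiment term (−0.18), and miR-100-3p without that term (0.54) or without 0 h (1.38). With 1 library left out these ran from −1.35 to 0.057 (miR-125a-3p), −1.32 to 0.096 (miR-99b-3p), −0.56 to 0.23 (miR-100-5p) and −7.08 to 1.38 (miR-100-3p). At 0 h against the released libraries the count of 1 became 0 with DESeq2 size factors, total miRNA reads, 18 bases or 10 adapter bases, and was 1 to 2 with a released library left out (2 without 16 h, with miR-125b-5p). On contact days 3 and 5 the count of 1 became 0 with total miRNA reads or 18 bases and 4 at 1.5-fold. It was 3 without day 3 (with miR-125b-5p and miR-99b-5p) and 3 without day 5 (with miR-125b-1-3p and miR-100-5p). For scale, 27.2% of all miRNAs set against day 0 had fallen 2-fold or further on day 5, and 20.9% on day 3. The counts at 1.5-fold and at 0 h without 16 h have no such share beside them and cannot be weighed. The causes were not tested. All 80 recomputed shares of full-length reads stayed within their intervals. Shares of the guides among miRNA reads moved by at most 1.58-fold, but 33 left their intervals (26 with the whole insert matched) and 47 stayed within them. Of the passenger-to-guide ratios with reads on both sides, 7 of 29 moved by over 1.5-fold (up to 2.53-fold) with the whole insert matched, 3 of 29 (up to 3.6-fold) with any start within 2 bases, which was added after the data were seen, and 0 of 29 with 18 bases. Of the ratios within clusters, 8 of 51 moved so with the whole insert matched (up to 2.95-fold), 2 of 52 with 18 bases (up to 6.91-fold) and 6 of 12, all between passengers, with any start (up to 6.35-fold). Among guides these were miR-99a-5p to miR-125b-5p with the whole insert matched, at 24 h (0.00247) and on day 0 (0.00159), and miR-99a-5p to miR-100-5p on day 0 (0.235). The ratios of miR-99b-5p and let-7e-5p to miR-125a-5p moved by less. No paired analysis was possible because each condition has 1 library and the labels carry no replicate numbers. Low passenger counts limit what the 12 h and 24 h libraries can show.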
